A study of Mus musculus with 16 samples.

Results

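Collagens are the structural proteins of the extracellular matrix, and the values here are the RNA levels of the mouse genes that encode their chains. The genes were taken by symbol (Col, a type number, the letter a and a chain number), which gave 44 of the 54838 genes in the deposited count table. By textbook class they comprise 11 fibrillar chains, 6 basement membrane chains, 6 beaded filament chains, 9 fibril-associated chains (FACIT), 2 multiplexins, 3 short-chain network collagens, 4 transmembrane collagens and 3 others.

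RNA was sequenced from spleen of C57BL/6 mice in 2 groups of 8 samples. Size-selected samples hold what a strainer retained of minced spleen that had been digested, Dispase II being 1 of the agents, and treated to lyse red cells. Spleen Glia is the source name given to them. The whole spleen samples carry the same protocol text in the labels, so how they were prepared is not given separately. Each of 8 numbers labels 1 sample of either group, 407, 408, 427 and 435 from male and 436, 445, 447 and 460 from female mice, with no allele, treatment or age given. The labels do not say whether a number is 1 animal or a pool. In bulk RNA, more cells of a type and more RNA per cell cannot be told apart.

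A collagen molecule is made of 3 chains wound into a triple helix, each chain a long run of Gly-X-Y repeats. The chains are hydroxylated and assembled in the endoplasmic reticulum by dedicated enzymes and the chaperone *Serpinh1*. Fibrillar collagens form the cables of connective tissue, type IV forms the sheet of basement membranes, type VI forms beaded filaments around cells, and FACIT chains sit on the surface of fibrils. In spleen, reticular cells ensheath a mesh of fibres rich in types I and III, and basement membranes surround vessels, smooth muscle and nerve bundles.

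Estimated counts per sample summed to between 13119992 and 19944440 in size-selected samples and between 12153770 and 16282454 in whole spleen. Collagen genes took 0.328% ± 0.114 (SD, n = 8) of the counts in size-selected samples, from 0.174% to 0.487%. In whole spleen they took 0.004998% ± 0.00324 (SD, n = 8), from 0.00348% to 0.0129%, and the highest was whole spleen 427. That sample stands apart from the other whole spleen samples in several collagens, so fold changes without it are given where they move by over 1.5 times. In the size-selected columns, the deposited values of 3898 genes, 18 of them collagens, had been multiplied by constants that differ between genes, with a mean of 0.916 or less for those collagens. Values divided by these constants are called restored counts. They raise the size-selected level of *Col1a1*, *Col6a1* and *Col18a1*, whose multipliers range from 0.684 to 0.799 over the samples, more than that of *Col3a1* and *Col1a2*, at 0.889 to 0.964.

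Sequences of 4 promoters and of 2 shared starts are shown first, because they belong to the extremes of the results below and to type IV gene pairs that lie head to head. Each promoter window is the 250 bases before the RefSeq start of the gene on GRCm38.p6, read 5′ to 3′ on the gene's strand, and 35 of the 44 collagens had at least 1 such window (38 in all). Capitals mark the CCAAT box (CCAAT), the GC box (GGGCGG) and the TATA box (TATAAA), searched on both strands, so that a GC box of the other strand stands as CCGCCC. No motif contains another. *Col3a1*, the most abundant collagen per kilobase in size-selected samples, is on chromosome 1 plus strand, and the window is chr1:45311288-45311537. *Col6a3*, among the collagens with the largest fold changes between the groups, is on the minus strand at chr1:90843972-90844221. *Col4a6*, whose fold change rested most on whole spleen 427, is on the minus strand at chrX:141474077-141474326. *Col11a2*, the tested collagen that was not called, is on the plus strand at chr17:34038888-34039137.
Col3a1: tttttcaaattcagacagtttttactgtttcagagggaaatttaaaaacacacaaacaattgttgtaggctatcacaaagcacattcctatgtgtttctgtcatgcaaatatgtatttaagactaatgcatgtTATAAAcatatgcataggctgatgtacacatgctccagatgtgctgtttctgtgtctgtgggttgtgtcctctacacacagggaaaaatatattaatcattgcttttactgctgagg
Col6a3: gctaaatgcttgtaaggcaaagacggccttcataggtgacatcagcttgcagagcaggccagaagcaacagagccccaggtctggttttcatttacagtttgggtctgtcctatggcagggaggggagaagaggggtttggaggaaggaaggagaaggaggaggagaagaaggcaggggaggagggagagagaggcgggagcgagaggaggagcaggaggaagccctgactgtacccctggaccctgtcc
Col4a6: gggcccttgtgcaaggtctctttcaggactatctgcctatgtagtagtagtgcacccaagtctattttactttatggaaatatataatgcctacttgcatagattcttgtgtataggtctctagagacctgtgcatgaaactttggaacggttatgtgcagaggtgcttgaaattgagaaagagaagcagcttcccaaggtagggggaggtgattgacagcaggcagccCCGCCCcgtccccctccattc
Col11a2: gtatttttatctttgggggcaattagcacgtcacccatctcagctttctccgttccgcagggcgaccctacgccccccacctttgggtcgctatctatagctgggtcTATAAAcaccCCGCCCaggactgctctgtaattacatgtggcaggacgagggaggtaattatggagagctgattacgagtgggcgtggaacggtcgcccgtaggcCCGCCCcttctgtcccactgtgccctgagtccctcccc
The *Col3a1* window holds a TATAAA that starts 117 bases upstream. The *Col6a3* window holds none of the 3 motifs, the *Col4a6* window a GC box that starts 21 bases upstream, and the *Col11a2* window a TATAAA and a pair of GC boxes. Counting a gene if any of its windows held the motif, a GC box was found for 21 of 35 collagens (60%) and for 35.4% of 27025 genes. CCAAT was found for 13 collagens (37.1%) against 37.5% of all genes, and TATAAA for 5 (14.3%) against 14.3%. These matches describe the letters only.

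The type IV genes stand in pairs that start side by side on opposite strands. *Col4a1* (chromosome 8, 11198423 to 11312826, minus strand) and *Col4a2* (11312805 to 11449287, plus strand) share 22 bases of their first exons, at chr8:11312805-11312826, printed on the plus strand. *Col4a4* (chromosome 1, 82448423 to 82586849, minus strand) and *Col4a3* (82586921 to 82722059, plus strand) have 71 bases between them, at chr1:82586850-82586920, printed on the minus strand. *Col4a5* and *Col4a6* lie 1308 bases apart on chromosome X. Outside type IV, *Col3a1* (chromosome 1, 45311538 to 45349706, plus strand) ends 24614 bases from the end of *Col5a2*, and *Col6a4*, *Col6a5* and *Col6a6* lie in a row on chromosome 9.
Shared first exons of *Col4a1* and *Col4a2*: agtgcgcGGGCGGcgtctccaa
Between Col4a4 and Col4a3: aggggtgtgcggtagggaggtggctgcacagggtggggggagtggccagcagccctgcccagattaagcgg

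The question of the series is which genes are enriched in the size-selected cells over whole spleen. Of the 44 collagens, 30 passed the filter on low counts and 29 of these were higher in size-selected samples (edgeR's quasi-likelihood test, Benjamini-Hochberg adjusted p under 0.05 over 14510 genes), while none was lower. Among all genes tested 37.5% were called higher and 30.4% lower. The filter asks for about 10 counts in 8 samples, and 25 of the 30 passed it through the size-selected samples. For most of these the direction of a difference was therefore largely set by the filter. Among the 25, *Col3a1*, *Col1a1* and *Col11a2* also had 7, 6 and 6 whole spleen samples past that level. The 5 whose 8 whole spleen samples passed by themselves were *Col4a1*, *Col4a2*, *Col14a1*, *Col18a1* and *Col1a2*, and their log2 fold changes ran from 4.17 to 7.24. The median log2 fold change of the tested collagens was 5.57, beside 0.05 for all genes tested. A log2 fold change of 5 or more was seen in 21 of 30 collagens and in 5.08% of all genes. The 8 size-selected values lay above all 8 whole spleen values for 26 of 30 collagens, beside 23.3% of all genes tested. The groups overlapped for *Col11a2*, *Col4a3*, *Col4a6* and *Col27a1*. Of the 30 tested, 28 were higher in the size-selected sample of every numbered pair, beside 31.3% of all genes tested. Of the 42 collagens with a count in any sample 35 were, beside 18.7% of the 28235 genes with a count. With the number as a block in the fit, the same count of 29 was called higher. By limma-voom 29 were called as well, and the fold changes of 12 of the 30 were over 1.5 times larger than by edgeR, up to 2.33 times.

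**Figure D1:**
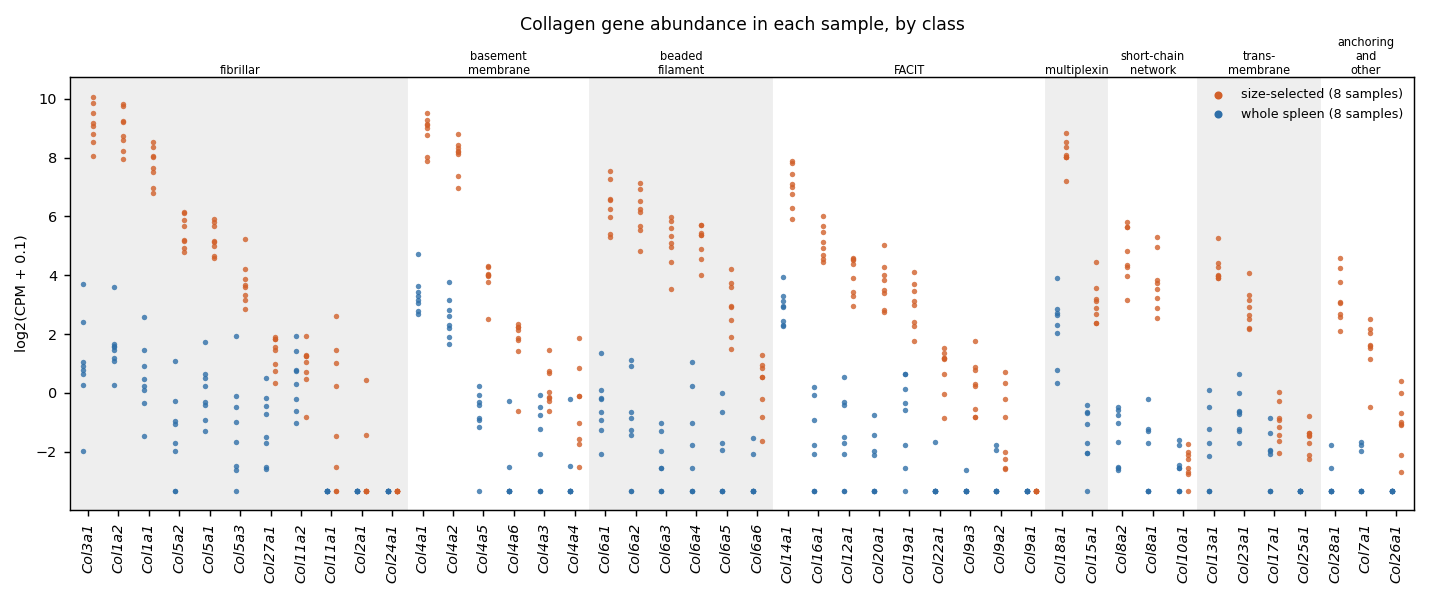
Abundance of the 44 collagen genes in each of the 16 samples, as log2 of CPM (counts relative to the TMM-scaled library total) plus 0.1, grouped by class and ordered by level within a class. Points are samples, and points on the bottom line are samples with 0 counts. *Col3a1*, *Col1a2* and *Col4a1* sit at the top in size-selected samples, while the points of *Col11a2*, *Col10a1* and *Col17a1* overlap between the groups.

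Types I, III and V rose in size-selected samples, while *Col11a2* did not pass the test. Of 11 fibrillar genes 8 were tested and 7 rose, with a median log2 fold change of 5.88. *Col3a1*, the chain of type III collagen of reticular fibres, measured 268 CPM at the lowest, 558 at the median and 1082 at the highest in size-selected samples. In whole spleen it measured 0.156, 1.70 and 13.0 CPM. The groups did not overlap, size-selected 436 and 427 were highest, and whole spleen 427 was the highest of its group. The log2 fold change was 7.58 (SE 0.61, edgeR adjusted p 4.59e-09), 7.94 with the number as a block, 8.33 without whole spleen 427 and 8.23 without number 427 in either group. The 2 chains of type I collagen, the main fibre-forming type of connective tissue, followed. *Col1a2* ranged from 251 to 901 CPM around a median of 508 in size-selected samples and from 1.10 to 12.1 CPM around 2.77 in whole spleen. On the log2 scale the difference was 7.24 (SE 0.47, edgeR adjusted p 4.36e-10). *Col1a1* ranged from 112 to 367 CPM around 231 in size-selected samples and from 0.261 to 5.96 CPM around 1.19 in whole spleen. The log2 fold change came to 6.999 (SE 0.46, edgeR adjusted p 5.20e-10), and 7.37 on restored counts. Neither chain overlapped between the groups.

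Type V chains, which join type I in the core of fibrils and control their diameter, rose too. *Col5a2* measured 27.7 to 71.2 CPM (median 43.7) against 0 to 2.04 CPM (median 0.298), with 0 counts in 2 whole spleen samples. Its log2 fold change was 6.63 (SE 0.50), and 7.41 without whole spleen 427. *Col5a1* measured 24.1 to 60.03 CPM (median 35.5) against 0.305 to 3.18 CPM (median 0.898), a log2 fold change of 5.14 (SE 0.37). The groups did not overlap for either chain. *Col5a3*, the least widespread type V chain, measured 7.18 to 37.6 CPM (median 12.3) against 0 to 3.72 CPM (median 0.312). Size-selected 436 was the highest of its group and whole spleen 447 of the other. The log2 fold change of 4.31 (SE 0.65; adjusted p 1.18e-05, edgeR) became 5.66 without number 447 and 3.83 without number 436.

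The fibrillar chains known from cartilage and bone were at low levels or absent. *Col27a1* measured 1.18 to 3.66 CPM (median 2.75) against 0.0653 to 1.31 CPM (median 0.380), and the groups overlapped slightly. The difference on the log2 scale was 2.44 (SE 0.46; adjusted p 0.000109, edgeR). *Col11a2*, a chain of type XI collagen, measured 0.461 to 3.75 CPM (median 2.13) in size-selected samples and 0.389 to 3.75 CPM (median 1.36) in whole spleen. The ranges lay on each other, and 7 of 8 pairs were higher in the size-selected sample. On the log2 scale the difference was 0.37 (SE 0.43, edgeR adjusted p 0.457), and 0.51 with the number as a block (adjusted p 0.232). *Col11a1* had 0 to 112 counts in size-selected samples (median 11.5) and none in whole spleen. *Col2a1*, the chain of cartilage collagen, was at 0 in all samples except size-selected 408 with 18 counts and size-selected 436 with 5. *Col24a1* had no count in any of the 16 samples, which allows up to 0.150 to 0.247 CPM per sample (3 counts of the total, counting error only).

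Basement membrane chains rose in all 5 genes tested, with a median log2 fold change of 5.17. *Col4a1* and *Col4a2*, the chains of the common type IV network, were the best measured of them. *Col4a1* measured 239 to 726 CPM (median 533) against 6.36 to 26.5 CPM (median 9.21), and the log2 fold change was 5.46 (SE 0.33; adjusted p 2.25e-10, edgeR). *Col4a2* measured 124 to 448 CPM (median 296) against 3.08 to 13.7 CPM (median 5.40), and the log2 fold change was 5.47 (SE 0.33; adjusted p 2.32e-10, edgeR). For both, all size-selected values were far above whole spleen, where sample 427 was highest. *Col4a5*, a chain of specialised basement membranes that also pairs with *Col4a6* around smooth muscle, measured 5.67 to 19.8 CPM (median 15.98) against 0 to 1.07 CPM (median 0.555). The log2 fold change came to 4.76 (SE 0.38), and 5.30 on restored counts. *Col4a6* measured 0.554 to 5.01 CPM (median 3.94) in size-selected samples and was at 0 in 6 whole spleen samples. The exceptions were whole spleen 427 with 0.734 CPM and 408 with 0.0763 CPM, so the groups overlapped through size-selected 408, the lowest at 0.554 CPM. The log2 fold change of 5.17 (SE 0.73; adjusted p 4.82e-06, edgeR) became 7.62 without whole spleen 427. *Col4a3*, a chain known from kidney and lung basement membranes, differed least of the class, at 0.554 to 2.67 CPM (median 0.868) against 0 to 0.863 CPM (median 0.232). Its log2 fold change was 1.97 (SE 0.61, edgeR adjusted p 0.00802), the ranges overlapped, and 7 of 8 pairs were higher. *Col4a4*, its neighbour and partner chain, did not pass the filter, with 1 to 50 counts (median 9) against 0 to 10.

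Type VI collagen forms the beaded filaments that link cells to the fibrillar matrix, and all 5 of its tested chains rose, with a median log2 fold change of 6.86. *Col6a1* measured 39.7 to 186 CPM (median 85.5) against 0.137 to 2.45 CPM (median 0.654), and the log2 fold change was 6.90 (SE 0.46; adjusted p 6.03e-10, edgeR), or 7.28 on restored counts. *Col6a2* measured 28.4 to 142 CPM (median 73.2) against 0 to 2.09 CPM (median 0.389), a log2 fold change of 6.86 (SE 0.55). *Col6a3*, the longest chain of the common molecule, measured 11.4 to 63.2 CPM (median 37.3) against 0 to 0.392 CPM (median 0.0703). It had at most 6 counts in a whole spleen sample, and its log2 fold change of 8.18 (SE 0.50; adjusted p 2.52e-10, edgeR) was the largest of the 30 as deposited. Without whole spleen 427 that of *Col3a1* was larger (8.33 against 8.01), and by DESeq2 that of *Col28a1* (8.285 against 8.268). *Col6a4* and *Col6a5* encode chains that can take the place of *Col6a3*. *Col6a4* measured 16.1 to 52.5 CPM (median 41.1) against 0 to 1.96 CPM (median 0.132), a log2 fold change of 6.39 (SE 0.58), or 7.22 without whole spleen 427. *Col6a5* measured 2.72 to 18.6 CPM (median 7.61) against 0 to 0.893 CPM (median 0.0816), a log2 fold change of 5.25 (SE 0.66). The groups were separate for these 5 chains. The last such chain, *Col6a6*, stayed below the filter with 4 to 34 counts (median 22.5) against 0 to 3. Restored values of *Col6a5* and *Col6a6* were fractional in 7 samples each, as when reads are divided between similar genes. Those of *Col3a1* were fractional in 7 samples and those of *Col4a3* in 3, and exons of *Col3a1* and *Col20a1* overlap another annotated gene on the same strand (Gm47302 and BX649560.1).

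FACIT collagens coat fibrils rather than forming them, and the 5 tested rose with a median log2 fold change of 5.34. *Col14a1*, a fibril-surface chain, measured 60.3 to 235 CPM (median 131) against 4.74 to 15.4 CPM (median 7.53). The groups were separate, yet whole spleen held more of it per kilobase than of any fibrillar chain, and its log2 fold change was 4.17 (SE 0.32, edgeR adjusted p 2.14e-09). *Col16a1* measured 21.8 to 65.0 CPM (median 32.5) against 0 to 1.06 CPM (median 0.165), and the log2 fold change was 6.83 (SE 0.51; adjusted p 1.90e-09, edgeR). *Col20a1* measured 6.58 to 32.8 CPM (median 12.6) against 0 to 0.490 CPM (median 0.0653), a log2 fold change of 6.77 (SE 0.56), or 7.37 without whole spleen 427. Which of these 2 rose more turned with the processing, since *Col20a1* was ahead on restored counts at 7.02 against 6.78. *Col12a1*, a relative of *Col14a1*, measured 7.68 to 23.7 CPM (median 18.0) against 0 to 1.37 CPM (median 0.234), a log2 fold change of 5.34 (SE 0.53). *Col19a1*, known from basement membrane zones, differed least by edgeR, at 3.32 to 17.3 CPM (median 8.21) against 0 to 1.48 CPM (median 0.629), and the log2 fold change was 3.70 (SE 0.54; adjusted p 7.21e-06, edgeR). No tested FACIT chain overlapped between the groups. Below the filter, *Col22a1*, a chain of muscle-tendon junctions, had 8 to 45 counts against 0 to 3. The cartilage chains of type IX had 7 to 61 counts against 0 to 1 for *Col9a3*, 1 to 28 against 0 to 3 for *Col9a2*, and no count in any sample for *Col9a1*.

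*Col18a1* and *Col15a1*, the multiplexins, tie basement membranes to the matrix around them, and the end of the type XVIII chain is the source of endostatin. *Col18a1* measured 149 to 459 CPM (median 266) against 1.17 to 15.02 CPM (median 5.51), with sample 427 highest in both groups. On the log2 scale the difference was 5.67 (SE 0.41, edgeR adjusted p 1.25e-09), or 6.05 on restored counts. *Col15a1* measured 5.05 to 22.04 CPM (median 7.96) against 0 to 0.653 CPM (median 0.294), and the log2 fold change was 4.86 (SE 0.46; adjusted p 3.56e-08, edgeR). The groups were separate for both.

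The short-chain network collagens of vessel walls and the cornea rose as a pair. *Col8a2* measured 8.93 to 56.6 CPM (median 24.5) against 0.0642 to 0.622 CPM (median 0.304), and the log2 fold change was 6.63 (SE 0.50; adjusted p 1.88e-09, edgeR). *Col8a1* measured 5.81 to 39.2 CPM (median 12.4) against 0 to 0.771 CPM (median 0.103), and the log2 fold change was 6.32 (SE 0.65; adjusted p 8.65e-08, edgeR), or 7.10 without number 435. *Col10a1*, the collagen of growth plate cartilage, had 0 to 3 counts in either group.

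Transmembrane collagens span the cell membrane and carry their triple helices outside the cell. *Col13a1*, known from the neuromuscular junction, measured 14.8 to 38.1 CPM (median 15.8) against 0 to 0.979 CPM (median 0.169), and the log2 fold change was 6.12 (SE 0.50; adjusted p 5.65e-09, edgeR). *Col23a1* measured 4.43 to 16.6 CPM (median 6.77) against 0.206 to 1.47 CPM (median 0.519), and the log2 fold change was 3.72 (SE 0.38; adjusted p 9.39e-08, edgeR). The groups were separate for both. *Col17a1*, of the hemidesmosomes of epithelia, had 2 to 14 counts against 0 to 7, and *Col25a1* had 2 to 10 against none. *Col28a1*, described in peripheral nerve around glial cells, measured 4.24 to 23.7 CPM (median 8.36), with 436 and 408 highest, and was at 0 in 6 of 8 whole spleen samples, the highest of which held 3 counts. Its log2 fold change of 7.998 (SE 0.61; adjusted p 2.41e-09, edgeR) became 9.26 without number 460, whose whole spleen sample held those 3 counts, and 7.70 without number 408. *Col7a1*, the anchoring fibril collagen of skin, had 11 to 116 counts (median 42.5) against 0 to 3, and *Col26a1* had 1 to 17 against none, both below the filter.

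Tested without a filter, 42 collagens had a count and 39 were called higher, beside 25.3% of 28235 genes. The exceptions were *Col10a1* (log2 fold change 0.15, edgeR adjusted p 0.893), *Col17a1* (1.44, adjusted p 0.0833) and *Col11a2*. The authors' deposited table of genes enriched in size-selected cells lists 34 of the 44 collagens. Their highest mean TPM in that table is that of *Col3a1*, 176 against 1.03.

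**Figure D2:**
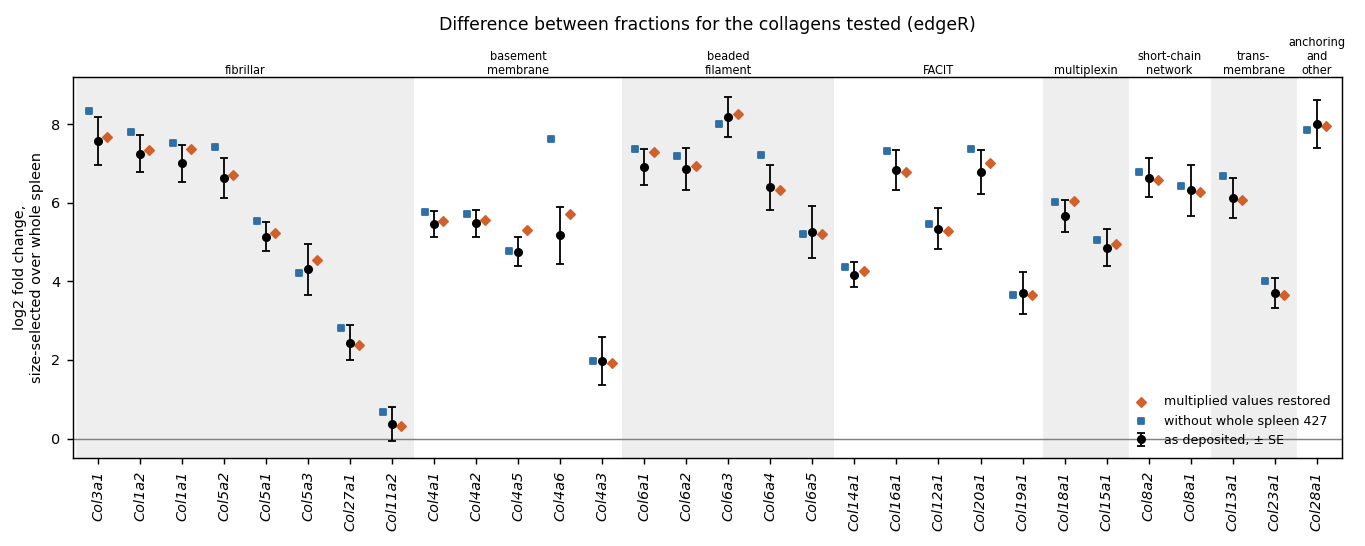
Log2 fold change of size-selected over whole spleen for the 30 collagens tested, by class. Black points and bars are the estimate and its SE from the deposited values, orange diamonds come from restored counts and blue squares from the fit without whole spleen 427. All but *Col11a2* lie well above 0, and *Col4a6* moves most without that sample.

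Per kilobase of transcript, which allows levels of different genes to be compared, the order in size-selected samples began with *Col3a1* at 111 ± 50.5 CPM per kb, *Col1a2* at 101 ± 46.1 and *Col4a1* at 74.1 ± 25.6 (SD, n = 8). *Col18a1* followed at 52.7 ± 16.5, *Col4a2* at 44.1 ± 15.7 and *Col1a1* at 38.8 ± 15.4. Within a sample, *Col3a1* was above *Col1a2* in 6 of 8, *Col1a2* above *Col4a1* in 7, *Col4a1* above *Col18a1* in 7 and *Col18a1* above *Col4a2* in 7. *Col4a2* and *Col1a1* were not separated, with 4 of 8 samples each way, while *Col1a1* was above *Col6a1* (23.0 ± 12.7 CPM per kb) in all 8. On restored counts the order of these 2 turned, with *Col1a1* at 52.3 ± 21.01 and *Col4a2* at 48.4 ± 17.8 CPM per kb, again with 4 of 8 samples each way. Whole spleen had another order, led by *Col4a1* at 1.69 ± 0.982 CPM per kb, *Col14a1* at 1.23 ± 0.544, *Col18a1* at 1.04 ± 0.772 and *Col4a2* at 1.00 ± 0.541. *Col1a2* came to 0.677 ± 0.651 and *Col3a1* to 0.592 ± 0.751 there, with SDs close to or above the means.

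The classes made up different shares of collagen RNA in the 2 groups. Fibrillar chains held 47.7% ± 3.32 of the collagen CPM per kb in size-selected samples (43.0% to 53.0%) and 24.1% ± 5.32 in whole spleen (17.9% to 33.4%), so the groups did not overlap. Beaded filament chains held 8.85% ± 1.19 against 4.94% ± 1.35, also without overlap. FACIT chains went the other way, at 6.62% ± 0.640 against 19.4% ± 3.98, with the highest size-selected share at 7.44% and the lowest whole spleen share at 13.7%. Most of this was 1 gene, *Col14a1*, at 3.94% ± 0.490 against 15.4% ± 4.44, while the other FACIT chains held 2.68% ± 0.589 (1.72% to 3.48%) against 3.93% ± 2.58 (0.411% to 9.27%), with ranges that overlapped. The beaded filament shares overlapped without *Col6a1*, at 3.97% to 5.58% against 0.321% to 5.27%. Basement membrane chains held 22.6% ± 4.79 against 34.3% ± 7.25, with ranges that overlapped (16.5% to 29.6% and 25.7% to 45.9%). Multiplexins held 10.3% ± 2.14 against 12.8% ± 5.18, transmembrane collagens 1.47% ± 0.449 against 2.60% ± 1.38, short-chain collagens 1.81% ± 0.603 against 1.77% ± 1.55 and the others 0.657% ± 0.530 against 0.226% ± 0.281, all overlapping (SD, n = 8 throughout). These shares were not tested. On restored counts the fibrillar share in size-selected samples was 47.2% and the multiplexin share 12.1%.

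**Figure D3:**
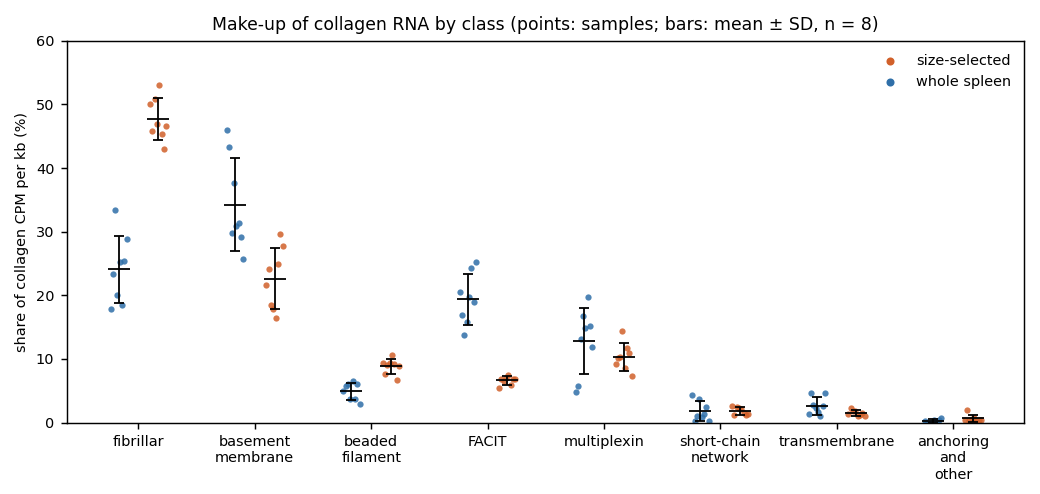
Share of each collagen class in the collagen CPM per kb of a sample, in percent. Points are samples and bars are the mean ± SD of 8 samples. Fibrillar shares are higher and FACIT shares, most of them *Col14a1*, lower in every size-selected sample than in any whole spleen sample.

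Ratios of chains within a library do not depend on how libraries are scaled, and 8 were tested by exact permutation (two-sided, every division of the 16 samples into 8 and 8). The *Col1a1/Col4a1* ratio per kb, fibrillar over basement membrane, was 0.359 at the lowest, 0.533 at the median and 0.662 at the highest in size-selected samples. In whole spleen it was 0.0476, 0.142 and 0.320, so the groups were apart. The difference in mean log2 ratio was 1.83 (exact permutation p 0.000155, the smallest the design can give; adjusted p 0.00124 over 8 ratios), higher in 8 of 8 pairs, and 2.12 on restored counts. With exact sign flips over the numbered pairs, its p was 0.00781, the smallest that 8 pairs can give, and 0.0625 adjusted over the 8 ratios. The *Col5a1/Col5a2* ratio, of chains that share a molecule, was 0.551, 0.676 and 0.777 in size-selected samples and 0.488, 1.89 and 22.9 in whole spleen. The difference was -2.13 (exact permutation p 0.00140, adjusted p 0.00559; p 0.0156 and adjusted p 0.0625 with exact sign flips over pairs), and the whole spleen ratios rest on 0 to 25 counts of *Col5a2*. With 5 instead of 0.5 added to each count it was -1.16 (adjusted exact permutation p 0.00332), and the highest whole spleen ratio, in 407, comes from 0 counts of *Col5a2*.

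The other 6 ratios did not pass the threshold. *Col1a1/Col1a2*, the chains of type I, was tight in size-selected samples, at 0.336 to 0.425 (median 0.398), and wide in whole spleen, at 0.121 to 1.17 (median 0.446). On restored counts its size-selected median was 0.478, and the difference changed sign, from -0.10 to 0.20 on the log2 scale. *Col4a1/Col4a2* was 1.53 to 1.89 (median 1.68) against 1.05 to 2.65 (median 1.82). Its mean log2 ratio was 0.75 ± 0.12 in size-selected samples and 0.76 ± 0.45 in whole spleen (SD, n = 8). The differences of *Col3a1/Col1a1* (0.91), *Col6a1/Col6a2* (-0.69), *Col6a3/Col6a1* (1.34) and *Col15a1/Col4a1* (-0.50) lay within a wide spread of the whole spleen samples. With 5 added, *Col15a1/Col4a1* differed by -1.69 (adjusted exact permutation p 0.00187), *Col6a3/Col6a1* by -0.13 and *Col6a1/Col6a2* by -0.07. Whole spleen held 0 to 8 counts of *Col15a1* (median 4), so adding 5 by itself raises the *Col15a1/Col4a1* ratio there. The value of -1.69 is therefore not read as a difference between the groups. A ratio shows unequal change and not which chain changed.

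**Figure D4:**
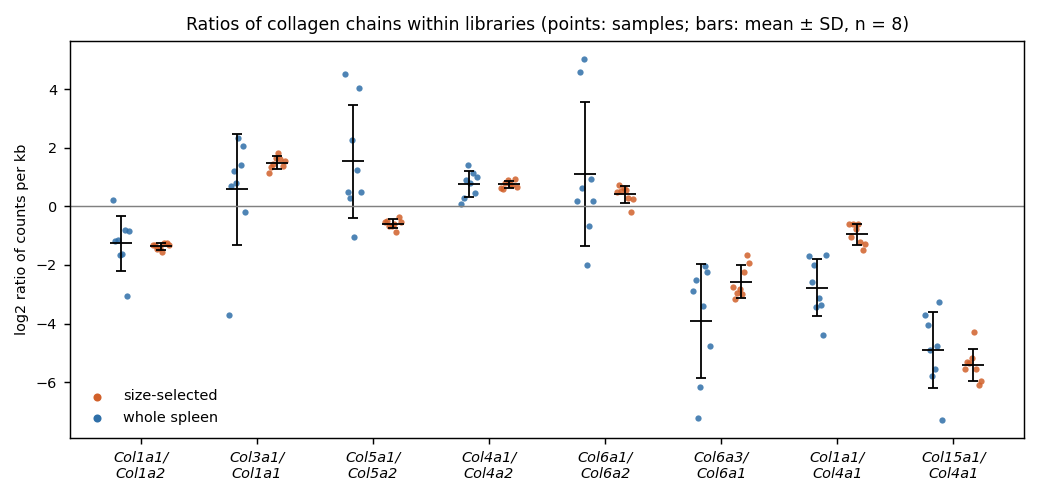
Log2 ratio of length-normalised counts of chain pairs in each sample. Points are samples and bars the mean ± SD of 8 samples per group. For each pair the size-selected points spread less than the whole spleen points, and only *Col1a1/Col4a1* separates the groups fully.

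No collagen was called between the sexes (4 female and 4 male numbers). In size-selected samples 36 collagens were tested, none was called (of all genes 0.0397% were, and 0.0132% as higher in females), and 3 had an unadjusted p under 0.05 by edgeR's quasi-likelihood test and 4 by DESeq2, beside 4.18% of all genes by edgeR and 5.1% by DESeq2. The 3 were *Col6a4*, *Col16a1* and *Col12a1*, at log2 differences of female minus male of 0.77 (SE 0.24), 0.64 (SE 0.28) and 0.70 (SE 0.31), each with an edgeR adjusted p of 0.9992. *Col6a4*, picked for the lowest p of the 36, measured 41.4 to 52.5 CPM in females and 16.1 to 40.8 in males. These ranges do not overlap, but they are the values it was picked by and add nothing to the test. Of the 36, 30 were higher and 6 lower in females, with a median of 0.39 beside -0.01 for all genes. The share of all genes in each direction was not counted. These 36 share the same 8 samples, so they are not separate observations of a sex difference. The collagen share of counts overlapped, at 0.278% to 0.487% in females and 0.174% to 0.459% in males. In whole spleen 10 collagens were tested, none was called (of all genes 0.194% were, and 0.0971% as higher in females), and 4 had an unadjusted p under 0.05 by edgeR and 5 by DESeq2, beside 16.1% of all genes by edgeR and 17.1% by DESeq2. The lowest p belonged to *Col4a2* (-0.96, SE 0.34, edgeR adjusted p 0.200), *Col4a1* (-0.84, SE 0.33, adjusted p 0.254) and *Col6a1* (-1.48, SE 0.64, adjusted p 0.284), all lower in females. Of the 10, 2 were higher and 8 lower in females, with a median of -0.90 beside -0.01 for all genes, a tally with the same limits. Male 427 was the highest whole spleen sample for these 3.

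The interaction of sex and fraction, which asks whether the difference between fractions differs between the sexes, was called for no collagen of 36 and for 0% of all genes. An unadjusted p under 0.05 was found for 6 collagens by edgeR, beside 4.72% of all genes, and for 7 by DESeq2, beside 5.5% of all genes. With the number as a block in edgeR it was found for 9, beside 5.93% of all genes. The lowest p belonged to *Col4a2* at 1.53 (SE 0.48), *Col4a1* at 1.42 (SE 0.48) and *Col6a4* at 2.86 (SE 1.11), each with an edgeR adjusted p of 0.9999. The interaction was positive for 30 of the 36 and negative for 6, with a median of 1.07 beside 0.01 for all genes. These 36 too share the same samples, and the share of all genes in each direction was not counted.

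Genes that make, process, bind, sense and degrade collagen were counted from lists, to be read beside the 37.5% of all genes called higher and the 30.4% called lower. Of the 67 list genes tested, 31 passed the filter only with size-selected samples among the 8, so for these too the direction was largely set by the filter. These were 7 of 21 for synthesis and secretion, 6 of 10 for processing, 10 of 16 proteoglycans and linkers, 4 of 10 receptors and 4 of 10 for degradation. Of 22 genes for synthesis and secretion 21 were tested, 18 rose and 3 fell, with a median log2 fold change of 2.14. Among the largest rises were those of *Serpinh1*, the collagen chaperone, at 5.37 (SE 0.30), and *Fkbp14*, a prolyl isomerase, at 5.15 (SE 0.60). Those that fell were *Ppib*, a prolyl isomerase used by all secretory cells, by 0.38 (edgeR adjusted p 0.00107), and the secretory transport genes *Mia3*, by 0.31 (adjusted p 0.0152), and *Mia2*, by 0.29 (adjusted p 0.00495). Of 13 genes for fibril processing and cross-linking 10 were tested and 9 rose, with a median of 4.41. The lysyl oxidases *Loxl1* and *Lox* led with 6.53 (SE 0.50) and 6.41 (SE 0.64). The exception was *Pcolce2*, an enhancer of procollagen cleavage, at -0.01 (edgeR adjusted p 0.978), or 0.83 on restored counts (adjusted p 0.00123). *Adamts14*, a procollagen peptidase, had the smallest rise at 0.68 (SE 0.22).

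All 16 tested of 17 proteoglycans and linkers rose, with a median of 5.57. *Fmod* and *Prelp*, small leucine-rich proteoglycans, led with 6.92 (SE 0.72) and 6.81 (SE 0.57), and the smallest rise was that of *Comp* at 2.37 (SE 0.65). *Nid1*, the nidogen of basement membranes, rose by 3.90 (SE 0.24). All 10 tested of 12 collagen receptors rose, with a median of 3.56, led by the integrin chain *Itga11* at 7.28 (SE 0.56) and the uptake receptor *Mrc2* at 6.67 (SE 0.68). *Lair1*, an inhibitory receptor of leukocytes, rose by 1.26 (SE 0.22) and *Itgb1*, the common integrin partner chain, by 2.11 (SE 0.16). Of 11 genes for degradation and its inhibition 10 were tested, 8 rose and 1 fell, with a median of 3.74. *Ctsk*, the collagen-cleaving cathepsin, rose by 6.74 (SE 0.51) and *Timp3*, an inhibitor, by 5.75 (SE 0.36), while the neutrophil collagenase *Mmp8* fell by 1.29 (SE 0.33, edgeR adjusted p 0.00224). *Mmp9* was not called at 0.15 (edgeR adjusted p 0.444), but was on restored counts at 0.39 (adjusted p 0.0431).

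Markers of several cell types moved with the collagens, to be read beside the 37.5% of all genes called higher and the 30.4% called lower. The filter bears on them in the same way. Through whole spleen alone it was passed by none of the 7 glia, 1 of the 7 mesothelial and 2 of the 8 reticular stroma markers tested. The same held for 3 of 8 smooth muscle and pericyte, 4 of 8 fibroblast and 7 of 8 endothelial markers. The glia markers that would mark the labelled source were higher in size-selected samples for all 7 of 8 tested (*Sox10* was below the filter), with sums of 71.2 to 612 CPM against 0.622 to 4.82 CPM. Smooth muscle and pericyte markers rose in 8 of 8, with sums of 833 to 3991 CPM against 8.75 to 78.1. Reticular stroma markers rose in 8 of 8 (367 to 2005 against 6.62 to 53.5 CPM), endothelial markers in 8 of 8 (779 to 2102 against 90.2 to 240 CPM) and mesothelial markers in 7 of 7 tested of 8 (49.0 to 326 against 1.68 to 5.79 CPM). Fibroblast markers rose in 7 of 8 and *Thy1*, which T cells carry too, fell (sums 1315 to 6127 against 125 to 318 CPM). Megakaryocyte markers rose in 4 of 4 (62.3 to 404 against 31.4 to 117 CPM) and macrophage markers in 2 of 4 (501 to 1126 against 471 to 760 CPM). *Cd5l*, a macrophage marker, was at 0.31 (edgeR adjusted p 0.123), and was called with the number as a block (adjusted p 0.0285) and on restored counts (adjusted p 0.00883), which makes 3 of 4. Markers of B cells (647 to 2422 against 3495 to 5008 CPM), T cells (47.6 to 305 against 444 to 678 CPM) and neutrophils (78.2 to 680 against 454 to 1601 CPM) fell in 4 of 4 each, and erythroid markers in 2 of 4 (106 to 3445 against 277 to 13640 CPM). With the number as a block 4 of 4 erythroid markers were lower, among them *Alas2*, of heme synthesis in red cells (edgeR adjusted p 1.08e-05). On restored counts 1 of the 4 was lower. Without whole spleen 427, 3 of 4 neutrophil markers were lower. Of 4 adipocyte markers none was tested (sums up to 0.762 CPM), and of 4 pancreatic acinar markers 1 was tested (sums 11.5 to 36.4 against 12.2 to 24.4 CPM). This was *Cela1*, at 0.39 (edgeR adjusted p 0.0994), or 0.35 with the number as a block (adjusted p 0.0431), and 7 of 8 pairs were higher in the size-selected sample. No listed marker was at 0 in every sample. The part of each cell type in the collagen levels was not tested.

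Within the size-selected group the 30 tested collagens were set against the mean log2 CPM of the fibroblast, smooth muscle, endothelial, mesothelial and glia markers, a set of 150 relations over the 8 samples that was chosen after the data had been seen. *Col18a1* went with the endothelial markers (Pearson r 0.97, exact permutation p 4.96e-05, adjusted p 0.00744; Spearman rho 0.98, exact permutation p 0.000397, adjusted p 0.0558), and r was 0.78 without the 2 samples farthest from the median. *Col6a1* went with the fibroblast markers (r 0.95, exact permutation p 9.92e-05, adjusted p 0.00744; rho 0.93, exact permutation p 0.00223, adjusted p 0.0558), with r 0.97 without those 2 samples. No other relation passed by r, and none by rho. The median r of the 30 collagens was 0.72 with endothelial, 0.74 with fibroblast and 0.75 with smooth muscle markers. It was 0.43 with glia and 0.19 with mesothelial markers. With the smooth muscle markers *Col18a1* had r 0.82 and *Col6a1* r 0.83, so neither collagen went with 1 cell type alone. *Col5a3* and *Col28a1* had their highest positive r with the glia markers, at 0.88 (exact permutation p 0.00682, adjusted p 0.0568; rho 0.81, exact permutation p 0.0218, adjusted p 0.131) and 0.81 (exact permutation p 0.0136, adjusted p 0.0637; rho 0.79, exact permutation p 0.0279, adjusted p 0.135). Without the 2 farthest samples r was 0.63 and 0.57, and 436 was the highest in glia markers. Neither relation passed the adjusted threshold. *Col20a1* had r 0.84 with the glia markers, above that of *Col28a1*, but a slightly higher r of 0.855 with the fibroblast markers. *Col5a3* had r 0.73 with the fibroblast markers. *Col28a1* had a negative r of similar size with the mesothelial markers, -0.82 (exact permutation p 0.0122, adjusted p 0.0637; rho -0.83, exact permutation p 0.0154, adjusted p 0.115), and -0.65 without the 2 farthest samples. Of the 30 collagens 13 had their highest positive r with smooth muscle markers, 9 with fibroblast, 3 each with endothelial and mesothelial and 2 with glia markers.

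**Figure D5:**
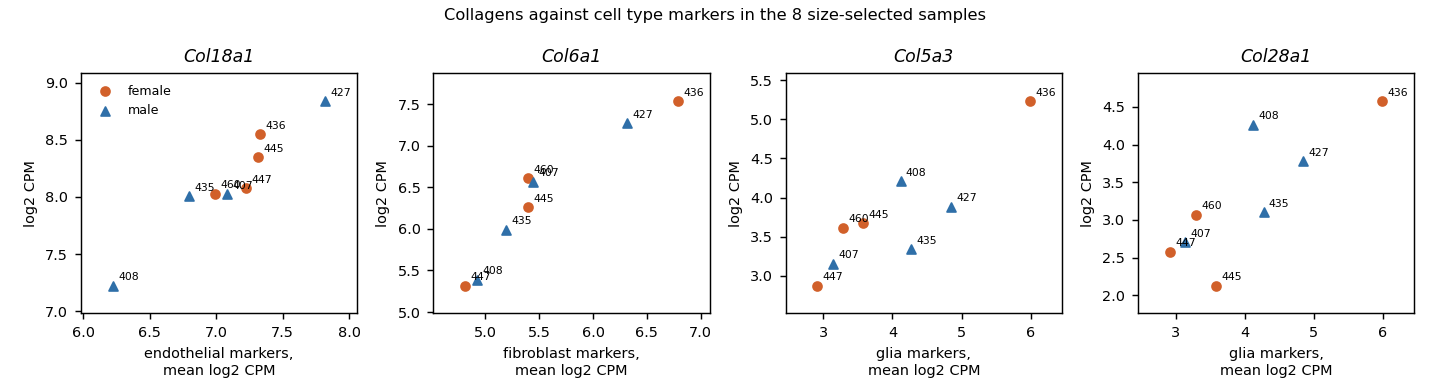
Log2 CPM of 4 collagens against the mean log2 CPM of marker genes of a cell type in the 8 size-selected samples, each labelled by its number, females as circles and males as triangles. *Col18a1* rises with endothelial markers from sample 408 to 427 and *Col6a1* with fibroblast markers up to 436, while *Col5a3* and *Col28a1* are highest in 436, the sample highest in glia markers.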

How the data were processed

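RNA-seq of 8 size-selected and 8 whole spleen samples was analysed from the deposited gene table, which holds an estimated count per gene and sample, as deposited by the authors. Per the submitters' processing notes, Trim Galore, STAR, RSEM and DESeq were used with build mm10; versions and annotation are not given in the sources used here. In the deposited size-selected columns, 3898 genes carry values with more than 2 decimals, all of which were explained as 2-decimal estimates multiplied by 1 to 3 constants; no label or header mentions this. After division by the constants, 40 of 44 collagens had whole counts in every sample (tolerance 0.005). The authors' second table, per the file headers, holds a mean signal (base mean), log2 fold changes, a test score, p-values and group mean TPM and FPKM; only TPM is printed. The FPKM values and scores deposited there were not used.

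Collagens were matched by symbol, and the text describes every one, with full statistics for the highest, most and least changed of each class, those not called and the chains of the ratios. Counts were rounded and analysed with edgeR 4.0.16 in R 4.3.3: filterByExpr (minimum count 10), TMM, quasi-likelihood F test on all 16 samples with the group as the term, Benjamini-Hochberg over 14510 genes. SE is the log2 fold change over the square root of F, and CPM are TMM-scaled. Ratios used counts plus 0.5 over the length of the longest protein-coding GENCODE M21 transcript. Fits were tested on simulated counts. Total counts per sample and their range are in the report, and intervals cover counting error only. The members, the lists (synthesis, processing, linkers, receptors, degradation and the cell type markers) and the tests were chosen with earlier results of these data known.

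The labels give each number to 1 sample of either group. Deviations of samples with the same number from their group means correlated at 0.208 on average (0.120 to 0.375), and those of different numbers at -0.0287, so the numbers were taken as pairs and the number was used as a block in an alternative fit. Where the labels do not say that samples are separate animals, p-values measure only the spread between these samples. Other alternatives were RLE scaling, library totals, no filter or a minimum count of 30, DESeq2 1.42.0, limma-voom (limma 3.58.1), restored counts, leaving out whole spleen 427 and leaving out each number.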

Additional observations from a re-analysis of the deposited data

Results flagged for a closer look

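In 92 groups of 8 values (log2 CPM of tested collagens, class shares and chain ratios), 9 held a sample whose gap to its nearest neighbour took a larger share of the group's range than Dixon's 95% limit for 8 values, where chance alone would give about 4.6. In 3 of them the sample was whole spleen 427, with log2 CPM of 4.74 for *Col4a1* (others 2.70 to 3.63), 3.61 for *Col1a2* (others 0.30 to 1.69) and -0.21 for *Col4a6* (others -2.91 to -2.26). Size-selected 408 was lowest for both type IV genes of the X chromosome, with log2 CPM of 2.54 for *Col4a5* (others 3.78 to 4.31) and -0.54 for *Col4a6* (others 1.43 to 2.36). The same sample had the highest share of anchoring and other collagens, 1.92% (others 0.284% to 0.722%). Size-selected 427 was highest for *Col13a1*, with a log2 CPM of 5.26 (others 3.90 to 4.42). Whole spleen 445 was lowest for *Col4a5*, at -2.91 (others -1.05 to 0.26), where it had no count. Whole spleen 407 had the lowest log2 *Col3a1/Col1a1* ratio, -3.70 (others -0.19 to 2.34). Causes were not tested.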

How the results depend on the processing

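The count of collagens called higher was 29 of 30 with RLE scaling, library totals, DESeq2, limma-voom, the number as a replicate block and restored counts. It was 26 of 26 with a minimum count of 30, 39 of 42 with no filter, 31 of 32 without whole spleen 427 and 28 to 31 without each number in turn. None was lower in any of these fits. Calls in the related lists ran from 62 (minimum count of 30) to 69 (no filter), beside 65, and from 63 to 65 without each number. No collagen was called for sex or its interaction under the alternatives run.

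For the chain ratios, 0 instead of 2 were called when the replicate block was used (sign flips over pairs). Sign flips do not re-estimate a difference, so that of *Col1a1/Col4a1* is the same 1.83, higher in 8 of 8 pairs. Its exact sign-flip p was the smallest value 8 pairs can give. If only 1 ratio reaches that value its adjusted p is 0.0625, so the flips could not call a ratio alone. Without each number, 2 were called, and 3 were with 5 added to counts. These 3 include *Col15a1/Col4a1*, which the added constant itself moves, since whole spleen held 0 to 8 counts of *Col15a1*. Differences that changed sign were all small or uncalled. *Col4a1/Col4a2* became 0.025 with 5 added and 0.0041, 0.060, 0.044 and 0.037 without numbers 427, 435, 445 and 460, in a range of -0.091 to 0.060 over the numbers left out. *Col6a3/Col6a1* became -0.13 with 5 added. *Col1a1/Col1a2* became 0.20 on restored counts and 0.11 without number 407, in a range of -0.37 to 0.11. The causes were not tested. The replicate block changed no call of a collagen or of a related list, and the cell type markers it added include *Cela1*, *Cd5l* and *Alas2*. Whole spleen held few collagen counts, which limits the ratios and fold changes of the low genes there.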
